A study of Drosophila melanogaster with 2 samples.

Results

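The genes described here are crc itself and 6 genes of the eIF2 phosphorylation cycle that controls its translation: the eIF2 kinase genes PEK and Gcn2, the eIF2 subunit genes eIF2alpha, eIF2beta and eIF2gamma, and PPP1R15. They were chosen by name, 7 of 13968 protein-coding genes on the 7 major chromosome arms. Every region that the authors listed was counted for a gene when its summit, the position of highest signal, lay in the gene body or within 5 kb of it. That gave 36 of the 24369 candidate regions called from the pooled reads, and 5 of the 2420 optimal peaks. The data are chromatin immunoprecipitation with sequencing (ChIP-seq) of a Crc-eGFP fusion in whole Drosophila melanogaster embryos aged 0 to 24 h, males and females mixed, in 2 biological replicates of 1 group. The line, named crc-MiMIC-GFP in the labels, carries an eGFP exon inside an intron of the crc gene, and antibody against GFP was used for the precipitation. All embryos carried the tag, no library without it was analysed here, and whole embryos mix many cell types and developmental stages. There was thus no comparison between conditions, and each count below stands beside the same count over all genes or all regions, without a test.

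The integrated stress response begins at eIF2, the trimeric factor that carries the initiator tRNA to the ribosome. Stress-activated kinases phosphorylate its alpha subunit, which slows the recycling of eIF2 by the exchange factor eIF2B and lowers the translation of most mRNAs. The mRNA of crc, the fly ATF4 gene, has upstream reading frames and is translated better in this state. Its product, Crc, is a basic leucine zipper factor that in turn activates stress genes, and PPP1R15 closes the loop by directing protein phosphatase 1 to eIF2alpha. Mammalian ATF4 is known to bind C/EBP-ATF response elements (CARE) in dimers with other leucine zipper proteins.

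The lists differ in what their values allow. Each region carries a signal, the authors' own value from their peak caller with no stated normalization, so signals were used to rank regions within a list and replicates were compared by rank. Signals ran from 63.98 to 1273.8 in the optimal list, from 18.85 to 1273.8 in the pooled list, from 10.26 to 571.3 in replicate 1 and from 9.23 to 765.1 in replicate 2. The optimal peaks, a list set by the authors' filter on agreement between the replicates, were the strongest pooled candidates. Such a peak could still lack a replicate 2 summit within 100 bp, as did that of MCTS1, a reinitiation factor gene. Each replicate list held 30000 entries, a round number, so a region missing from one is only known to be below its lowest listed signal. The read depth, and with it the number of reads behind a region, is unknown.

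All 7 genes had a pooled candidate within 500 bp of an annotated start, against 45.5% of all protein-coding genes. Only at eIF2beta was the candidate at the gene's own start strong enough for the optimal list, 1 of 7 genes against 11.5% of all. Within 5 kb, 4 of the 7 had an optimal peak (PEK, Gcn2, eIF2beta and PPP1R15), against 32.3% of all genes. This depended on the limit. Within 1 kb the count was 1 of 7, against 18.4% of all genes. Within 2 kb it was 2 of 7, against 22.4%. Over only 7 genes, both counts are near the shares of all genes. PEK, Gcn2 and PPP1R15, 3 of the 4, had an optimal peak within 500 bp of another gene's start and none at their own. Of the 4518 genes with an optimal peak within 5 kb, 44.1% had that pattern. The strongest signal within 500 bp of a start had a median of 47.3 over the 7 genes, against 37.8 over the 6352 genes with such a candidate, whose quartiles were 25.8 and 64.5. Counted within 5 kb, the strongest signal had a median of 101.2 over the 7 genes and 48.1 over 12425 genes. The 7 genes had a median of 5.0 candidates and a median length of 5615.0 bp, against 3.0 candidates and 2164.5 bp over all genes. The part of gene length in these counts was not tested.

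**Figure D1:**
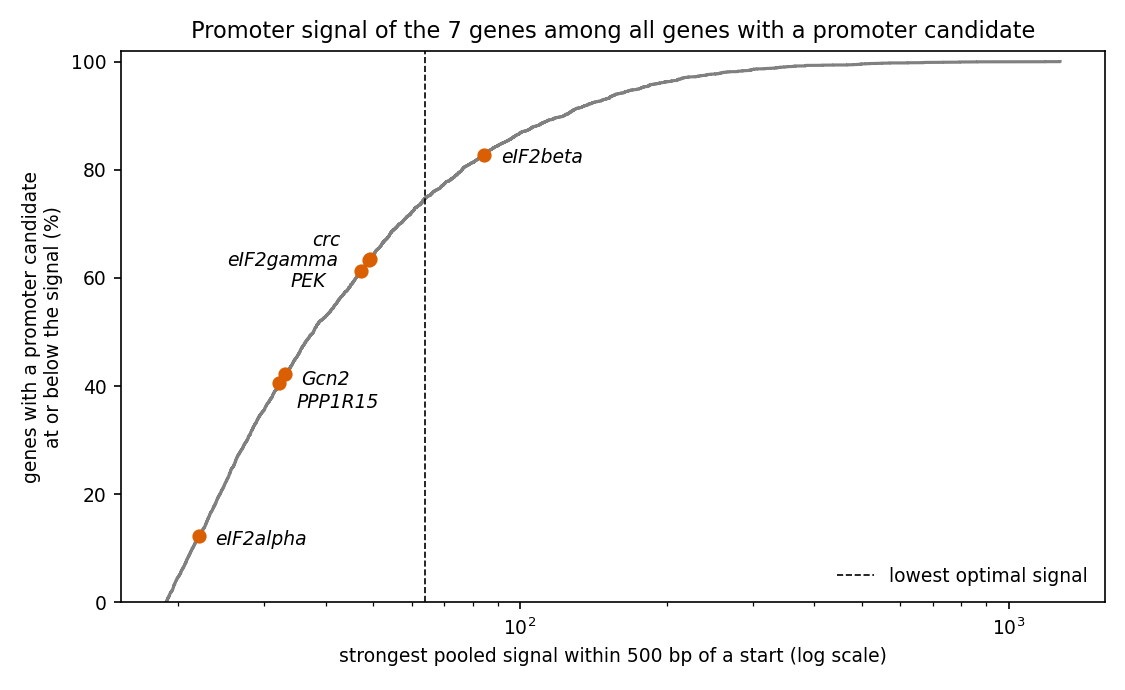
Strongest pooled signal within 500 bp of a start (horizontal axis, log scale, the authors' signal) for the 6352 protein-coding genes that have one (grey line, cumulative percent) and for the 7 genes (orange points). Only eIF2beta, at 84.4, lies to the right of the lowest optimal signal of 63.98; crc, eIF2gamma and PEK lie at 47.3 to 49.4 and eIF2alpha at 22.0.

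The effector gene crc (FBgn0000370) lies on the forward strand at chr2L:21310866-21319527 in dm6 and has 2 annotated starts, the second shared with the overlapping gene CG46314. It had 6 pooled candidates and no optimal peak. The strongest candidate, in the 5' UTR 342 bp after the first start, had a signal of 49.4 and rank 3723 in the pooled list, above the strongest promoter signal of 63.5% of the genes with one. In replicate 1 the same summit position carried a signal of 40.1 at rank 1224 of 30000, whereas replicate 2 had no summit within 100 bp of it. The nearest replicate 2 summit was 144 bp away with a signal of 9.9 at rank 26768. The main candidate at the crc start was therefore high in 1 library and missing, or near the bottom of the list, in the other.

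Replicate 2 placed its signal elsewhere around the crc start. Its strongest summit there was 600 bp upstream of the start, with a signal of 20.9 at rank 6976 and 216 bp from a start of Mondo, the neighbouring gene for a sugar-sensing transcription factor. Nearer summits lay 279 bp upstream, with a signal of 15.8 at rank 11619, and 1 bp upstream, with 15.8 at rank 11648. The summit 279 bp upstream had a counterpart in every list, since the pooled list had a candidate 277 bp upstream with a signal of 40.9 at rank 5136, and replicate 1 had 17.6 at rank 7439 within 22 bp of it. This intergenic candidate is the only 1 of the 6 at crc that both replicates matched within 100 bp, and in neither did it rank as high as the 5' UTR candidate did in replicate 1.

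The bases around that upstream summit are shown because they hold a DNA replication-related element (DRE, TATCGATA, in capitals), the site of the core promoter factor Dref. They are given on the forward strand of the RefSeq copy of Release 6 (dm6), chr2L:21310489-21310609, and the element starts 366 bp upstream of the first crc start, 82 bp from the summit.
crc upstream candidate: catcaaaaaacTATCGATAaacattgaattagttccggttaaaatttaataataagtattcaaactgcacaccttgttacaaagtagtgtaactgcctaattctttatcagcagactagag
The stronger candidate in the 5' UTR had no DRE and no CARE within 100 bp of its summit. It had E-boxes, CACGTG, the palindrome bound by basic helix-loop-helix zipper factors, at 256 and 412 bp after the start, 81 and 70 bp from the summit, and was the only 1 of the 36 candidates with an E-box (2.78%), against 2.4% of optimal and 2.4% of all pooled summits.

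The remaining crc candidates were weaker or belonged to other places. A candidate 2223 bp upstream, in a coding exon of Mondo, had a pooled signal of 39.1 at rank 5505 and was matched in replicate 2 (27.4, rank 4379) but not in replicate 1. Within crc, an intronic candidate 883 bp before the second start had 19.0 at rank 24034, close to the lowest listed signal, and was matched in replicate 2 alone. A candidate in a crc coding exon that is also the 3' UTR of CG46314 had 21.5 at rank 18478 and was matched in replicate 1 alone (19.6, rank 5443). The last, 1982 bp past the gene, had 22.8 and was matched in replicate 2 alone. Of the 6 candidates, 1 was matched in both replicates, 2 in replicate 1 alone and 3 in replicate 2 alone. In all, replicate 1 listed 4 regions and replicate 2 listed 12 in or within 5 kb of crc, against means over all genes of 4.6 and 4.9. The crc gene is 8662 bp long, against a median of 2164.5 bp over all genes. The eGFP exon itself lies in this gene, and its part in the candidates seen here was not tested.

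**Figure D2:**
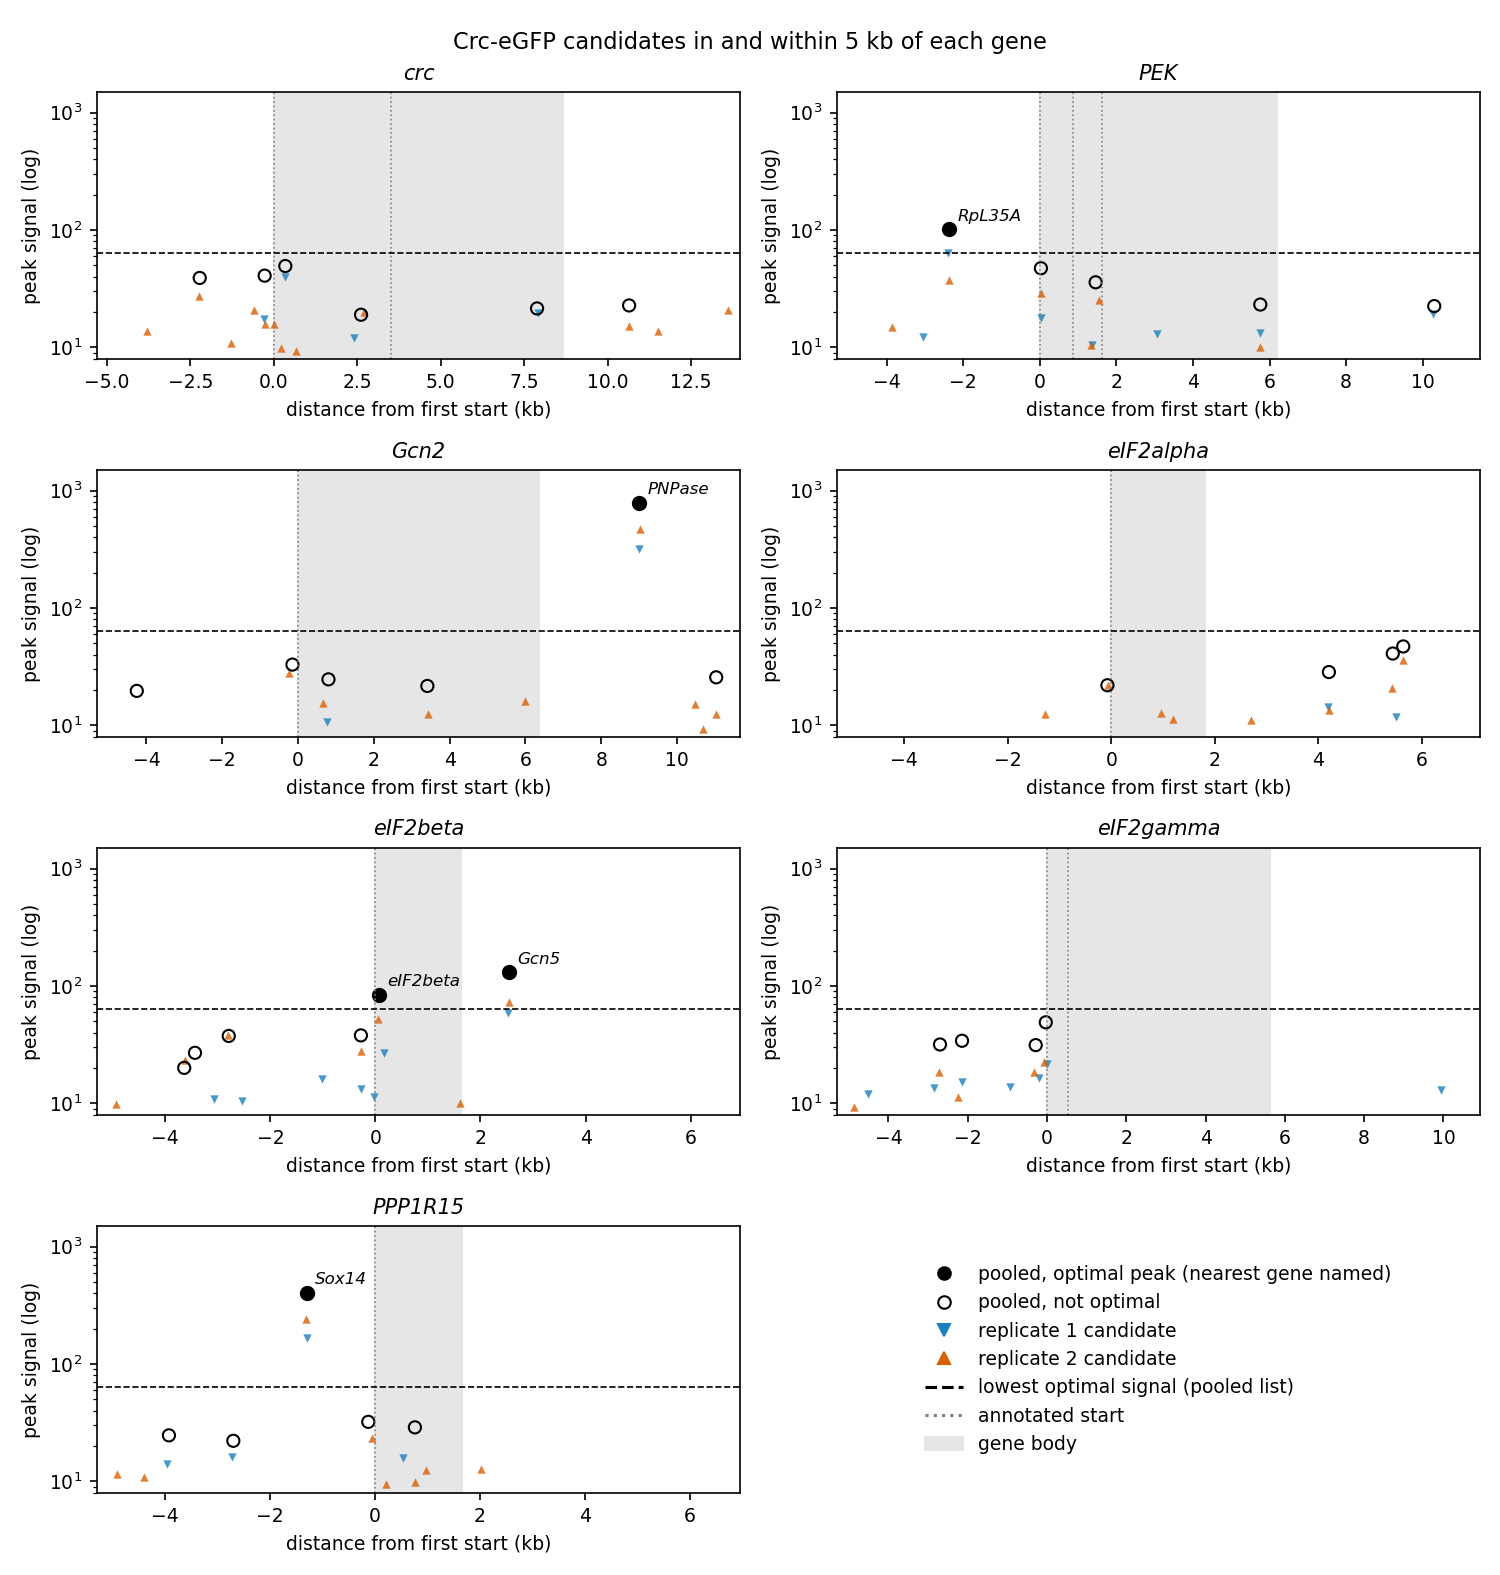
Regions in and within 5 kb of each gene, by distance from the gene's first start along its direction of transcription (kb) and by signal (log scale, the authors' signal, not comparable between lists). Circles are pooled regions, filled where optimal; blue and orange triangles are the candidates of replicates 1 and 2; the grey band is the gene body. Of the 5 filled circles, 1 stands at the start of the gene shown, that of eIF2beta, and the other 4 carry the names of neighbours.

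The eIF2 kinase gene PEK (FBgn0037327), the fly PERK, senses unfolded protein in the endoplasmic reticulum. It lies on the reverse strand at chr3R:5458563-5464753 and has 3 annotated starts. Its strongest promoter candidate, in the 5' UTR 29 bp after the first start, had a pooled signal of 47.3 at rank 4020, above 61.3% of genes with a promoter candidate. Both replicates had a summit within 8 bp of it, with a signal of 17.7 at rank 7261 in replicate 1 and 29.1 at rank 3964 in replicate 2. The start of PEK thus had nearly the same summit position in every list, in the upper part of each. The candidate was 16.5% of the way down the pooled list, 24.2% down that of replicate 1 and 13.2% down that of replicate 2. Among genes with a promoter candidate in the same list, it was above 49% in replicate 1 and 66.7% in replicate 2. An intronic candidate 175 bp before the most internal start had 35.9 at rank 6412 and was matched in replicate 2 alone (25.4, rank 4948), the nearest replicate 1 summit being 101 bp away. A candidate in the 3' UTR had only 23.2 but was matched in both replicates, at ranks 16351 and 26150.

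The optimal peak beside PEK belonged by position to RpL35A (FBgn0037328), a gene for a protein of the large ribosomal subunit that lies upstream of PEK on the same strand. Its summit was 20 bp from the RpL35A start and 2368 bp from that of PEK, with a signal of 101.2 at rank 1121. In replicate 1 it had 63.7 at rank 508 and in replicate 2 it had 37.7 at rank 2542. The RpL35A start outranked the PEK start in both libraries. The fifth PEK candidate, 4112 bp past the gene in an intron of CG14669, had 22.5 and was matched in replicate 1 alone.

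Gcn2 (FBgn0019990), the kinase that senses uncharged tRNA during amino acid shortage, lies on the forward strand at chr3R:31395660-31402013. Its promoter candidate had a signal of 33.0 at rank 7495, with the summit 146 bp upstream of the start, and was stronger than the promoter candidate of 42% of genes. Replicate 2 had a summit 80 bp from it, with a signal of 28.1 at rank 4216. No replicate 1 summit lay within 500 bp of the start. The stretch upstream of Gcn2 is also within 500 bp of a start of Ugt35D1, a glycosyltransferase gene, and the replicate 2 summit lay 226 bp from the Gcn2 start and 130 bp from that of Ugt35D1. The bases between the summit region and the start are shown for their DRE, in capitals, whose first base is 40 bp upstream (forward strand, RefSeq Release 6, chr3R:31395500-31395659).
Gcn2 upstream: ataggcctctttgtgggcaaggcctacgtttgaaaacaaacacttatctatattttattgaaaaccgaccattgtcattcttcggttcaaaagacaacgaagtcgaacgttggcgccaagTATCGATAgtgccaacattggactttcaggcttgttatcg
The element lay 106 bp from the pooled summit, just outside the window of 100 bp used to score elements at summits.

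Inside Gcn2 the candidates were weak. One in a coding exon 804 bp after the start had 24.7 at rank 13742 and one in an intron had 21.7 at rank 18191. Each was matched in 1 replicate only, the coding exon in replicate 1 (10.8, rank 26747) and the intron in replicate 2 (12.6, rank 17735). The nearest replicate 2 summit to the coding exon candidate was 138 bp away, with 15.5 at rank 12065, higher than the replicate 1 match ranked in its own list. A candidate 4251 bp upstream, with 19.7 at rank 22286, was matched in neither. Past the end of the gene stood the strongest region near any of the 7 genes, an optimal peak with a signal of 792.6 at rank 9 of the pooled list. Its summit was 2636 bp past the gene, in an intron of PNPase (FBgn0039846), 81 bp from an internal start of that gene and 803 bp from its most upstream one. PNPase is a gene for an RNA-degrading enzyme, runs towards Gcn2 on the other strand and overlaps its end. The peak had 320.2 at rank 7 in replicate 1 and 471.4 at rank 9 in replicate 2. Its distance from the Gcn2 start was 8989 bp, so it counts for Gcn2 only because the rule takes in the ground beyond both gene ends. The last candidate there, in an intron of Gprk2 4677 bp past Gcn2, had 25.7 and was the farthest out of all 36; the nearest pooled candidate outside the limit lay 5458 bp from its gene.

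The 3 eIF2 subunits showed 3 different pictures. eIF2alpha (FBgn0261609) encodes the subunit that the kinases phosphorylate, and lies on the reverse strand at chrX:16445176-16446993. It had the weakest promoter candidate of the 7 genes, with a signal of 22.0 at rank 17589 and the summit 74 bp upstream of the start; only 12.2% of genes with a promoter candidate had a weaker one. Replicate 2 had a summit 13 bp away with a signal of 21.9 at rank 6474. In replicate 1 the nearest summit was 4260 bp from it, so no replicate 1 region was listed at the eIF2alpha promoter. The bases upstream of the start (reverse strand, RefSeq Release 6, chrX:16446994-16447113) are shown for the DRE in capitals, which begins 13 bp before the start, 61 bp from the pooled summit.
eIF2alpha upstream: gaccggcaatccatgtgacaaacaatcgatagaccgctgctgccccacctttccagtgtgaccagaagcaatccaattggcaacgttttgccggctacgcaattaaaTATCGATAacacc
This was the candidate closest to the end of the pooled list among the 7 promoters, yet it lay beside the same element as the promoters of Gcn2 and eIF2gamma.

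The other 3 candidates of eIF2alpha lay past the gene, around the starts of Cdc50, which encodes a subunit of a lipid flippase, and rngo. The stronger had 47.1 at rank 4042, 57 bp from the Cdc50 start, and was matched in replicate 2 (36.2, rank 2726) and not in replicate 1. The next had 41.0 at rank 5117, 2 bp from the rngo start, and was matched in both replicates, at ranks 22031 and 6922. Each of these had a DRE within 100 bp of its summit. The third, in an intron of rngo, had 28.5 at rank 10145 and was matched in both, at ranks 13246 and 15567.

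eIF2beta (FBgn0004926), the subunit that contacts the GTPase-activating factor eIF5, lies on the reverse strand at chr3L:12525093-12526731. It was the only 1 of the 7 genes with an optimal peak at its own start. The peak had a signal of 84.4 at rank 1535 of the pooled list, above 82.7% of genes with a promoter candidate, and its summit lay in the 5' UTR 60 bp after the start. In replicate 2 the summit was 12 bp away, with a signal of 52.2 at rank 1474. In replicate 1 the summit within 100 bp was a weak one, 95 bp away with 11.4 at rank 23995, but a stronger one lay 104 bp away in an intron, with 27.1 at rank 2556. Taken by the strongest summit within 500 bp of the start, eIF2beta thus lay in the upper part of every list. It was 6.3% of the way down the pooled list, 8.52% down that of replicate 1 and 4.91% down that of replicate 2. Among genes with a promoter candidate in the same list, it was above 72.6% in replicate 1 and 86% in replicate 2. The replicate 1 values are those of the intronic summit.

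The summit of this peak fell inside a strict CARE, TGATGCAAT, the full element without the variable base. It is the only strict CARE within 100 bp of any of the 36 summits (2.78%, Wilson 95% interval 0.492 to 14.2). Of all pooled summits 56 of 24369 had one (0.23%, 0.177 to 0.298). Of optimal summits 8 of 2420 had one (0.331%, 0.168 to 0.651). Both of these counts include the eIF2beta summit. The element begins 54 bp after the start. It is shown in capitals beside a second one, which begins 42 bp after the second start of eIF2gamma, because these are the only strict CAREs within 100 bp of a start among the 7 genes (reverse strand, RefSeq Release 6, chr3L:12526659-12526688 and chr3R:15262877-15262906).
eIF2beta 5' UTR: gtcactttggcTGATGCAATtgcagttttt
eIF2gamma 5' UTR: caattttgagtTGATGCAATtcaagcgaca
In both genes the element reads in the direction of transcription within the 5' UTR. A strict CARE within 100 bp of an annotated start occurred in 2 of the 7 genes and in 29 of 13968 genes (0.208%). This count was made after the first element had been seen and was not tested. It depended on the window. From 250 bp before to 50 bp after the first start, 0 of the 7 genes had one, against 0.193% of all genes. The eIF2beta element begins just past that window, and that of eIF2gamma begins 563 bp after its first start. The middle of the eIF2beta element lay 2 bp from the pooled summit, 10 bp from a replicate 2 summit and 93 bp from a replicate 1 summit. That of eIF2gamma lay 598 bp from the nearest pooled summit, 558 bp from one of replicate 1 and 654 bp from one of replicate 2. The same letters at the same kind of place thus had a summit on them in 1 gene and none within 500 bp in the other. Over the genome, 57 of 1410 strict CAREs (4.04%, Wilson 95% interval 3.13 to 5.2) had a pooled summit within 100 bp, and of the 29 such elements near starts 5 did (17.2%, 7.6 to 34.5).

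Around eIF2beta a further optimal peak lay 897 bp past the gene, with a signal of 130.6 at rank 709. Its summit was 182 bp from the start of Gcn5 (FBgn0020388), a histone acetyltransferase gene, in an intron of ver, which encodes a telomere-capping protein. Replicate 1 had 58.4 at rank 612 and replicate 2 had 73.6 at rank 801, so the Gcn5 region had similar ranks in the libraries. A second candidate at the eIF2beta promoter, 276 bp upstream, had 38.0 at rank 5789 and was matched in both replicates, at ranks 16358 and 4266. The other 3 candidates lay at and inside nst, at signals of 20.1, 27.0 and 37.6, and replicate 1 matched none of them.

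eIF2gamma (FBgn0263740), the subunit that binds GTP and the initiator tRNA, lies on the reverse strand at chr3R:15257844-15263458. It shares its first start with Su(var)3-9, a histone methyltransferase gene, and faces Set, a histone chaperone gene, across a short divergent promoter. Its promoter candidate had a signal of 49.1 at rank 3773, above 63.2% of genes with one, with the summit 31 bp upstream of the start. Replicate 1 had 21.6 at rank 4231, 40 bp away, and replicate 2 had 22.6 at rank 6090, 56 bp away. The replicate 1 summit lay 9 bp after the eIF2gamma start and that of replicate 2 lay 7 bp from the Set start. The labels give DNA fragments of 200 to 800 bp, so summits this close do not place the signal at either end of the divergent promoter. All 93 bases between the start of eIF2gamma and that of Set are shown, on the strand of eIF2gamma (reverse strand, RefSeq Release 6, chr3R:15263459-15263551), with their DREs in capitals.
eIF2gamma to Set: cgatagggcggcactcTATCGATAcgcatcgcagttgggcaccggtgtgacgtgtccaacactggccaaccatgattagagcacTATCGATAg
These DREs begin 77 and 9 bp upstream of eIF2gamma and lie 39 and 22 bp from the pooled summit. Another begins 96 bp upstream, so that only its end is in the printed bases and the rest lies in the first exon of Set. No other promoter of the 7 genes had 3.

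The other eIF2gamma candidates lay nearer to neighbours' starts. One in a Set coding exon, 191 bp from the Set start and 285 bp from that of eIF2gamma, had 31.4 at rank 8307. It was matched in both replicates, at ranks 9085 and 8767. One 11 bp from the start of ATPsynO, an ATP synthase subunit gene, had 34.2 at rank 6994 and was matched in both, at ranks 11428 and 21697. The last, in an ATPsynO coding exon, had 31.8 at rank 8125 and was matched in replicate 2 alone. No pooled candidate lay inside eIF2gamma itself.

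**Figure D3:**
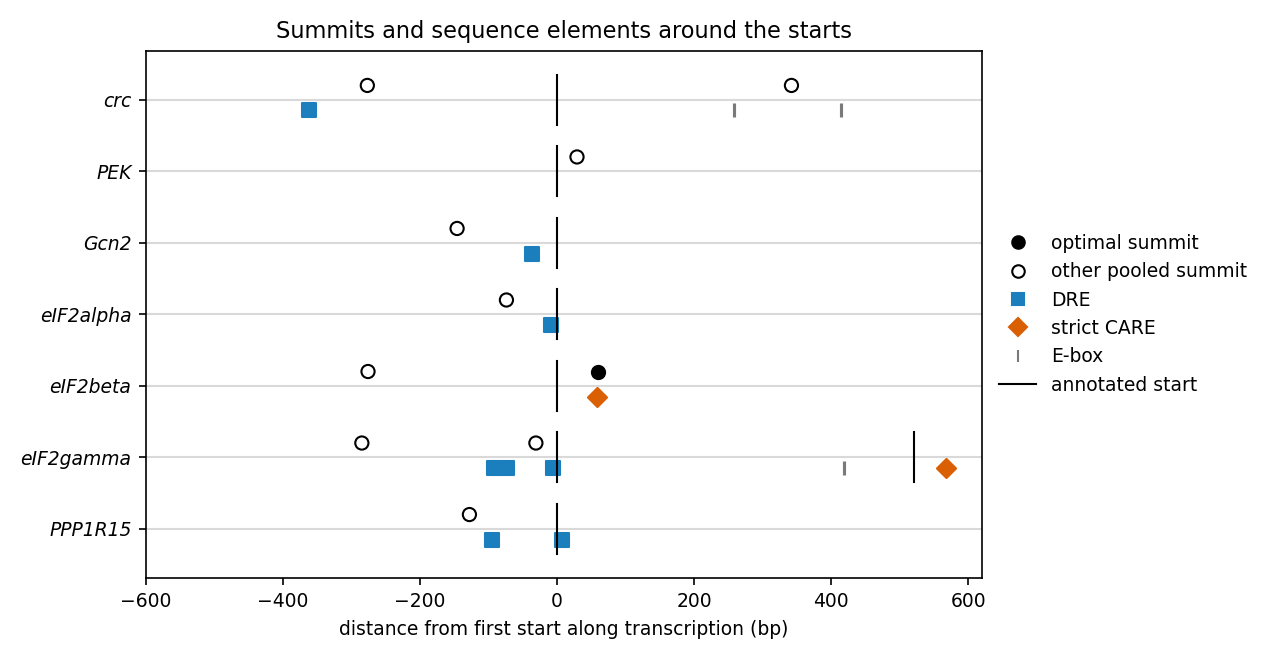
Pooled summits (circles, filled where optimal) and sequence elements (squares for the DRE, diamonds for the strict CARE, grey ticks for the E-box) within about 600 bp of the first start of each gene, in bp along the direction of transcription. The only filled circle, that of eIF2beta at 60 bp, stands over a strict CARE, and blue squares lie upstream of 5 of the 7 starts.

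Over the promoters as a group the DRE was the element found most often. Scored from 250 bp before to 50 bp after the first start, on either strand, it was present in 4 of the 7 genes (Gcn2, eIF2alpha, eIF2gamma and PPP1R15), against 1307 of 13968 genes (9.36%). The DRE of crc lies farther upstream, and PEK and eIF2beta had none. At summits, 6 of the 36 member candidates had a DRE within 100 bp (16.7%, Wilson 95% interval 7.87 to 31.9), against 3.55% of optimal summits and 1.83% of all pooled summits. Many of the 36 lie at starts, and of the starts of all protein-coding genes 7.83% had a DRE within 100 bp. The 6 include the candidates at the starts of Cdc50 and rngo. A CARE in its wider form, TGATGNAAC or TGATGNAAT, was at 2 of the 36 (5.56%, 1.54 to 18.1), against 1.32% of optimal and 1.46% of all pooled summits. The 36 candidates share loci, and their intervals cover counting error alone. None of the 36 had the cyclic AMP response element TGACGTCA. An element is a run of letters in a window and says nothing here of which factor was bound.

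The replicates were not alike at these promoters, and the difference ran in 1 direction at 3 genes. Promoter candidates of Gcn2, eIF2alpha and PPP1R15 were listed in replicate 2 and not in replicate 1, a pattern found in 17.6% of the 6352 genes with a pooled promoter candidate, where the opposite pattern made up 7.95%. None of the 7 genes had the opposite pattern, but 7 genes are few for a share of 7.95%. The strongest crc candidate was itself matched in replicate 1 alone. Of the 4 genes listed in both, PEK and eIF2beta ranked higher in replicate 2 and crc and eIF2gamma ranked higher in replicate 1; of all 4640 genes listed in both, 49.3% ranked higher in replicate 2. Of the 36 member candidates, 14 had a summit within 100 bp in both replicates, against 35.6% of all pooled candidates, so the share was near that of all. A further 6 were matched in replicate 1 alone, against 25.4% of all, 14 in replicate 2 alone, against 29%, and 2 in neither, against 9.92%. In all, 33 regions of replicate 1 and 54 of replicate 2 lay in or within 5 kb of the 7 genes. These are totals over 7 genes, whereas the means for a single gene, over all genes, were 4.6 and 4.9. The median length was 5615.0 bp for the 7 genes and 2164.5 bp for all genes, and the part of length was not tested. Replicate 2 listed more regions than replicate 1 at 4 of the 7 genes, against 43.4% of all genes.

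**Figure D4:**
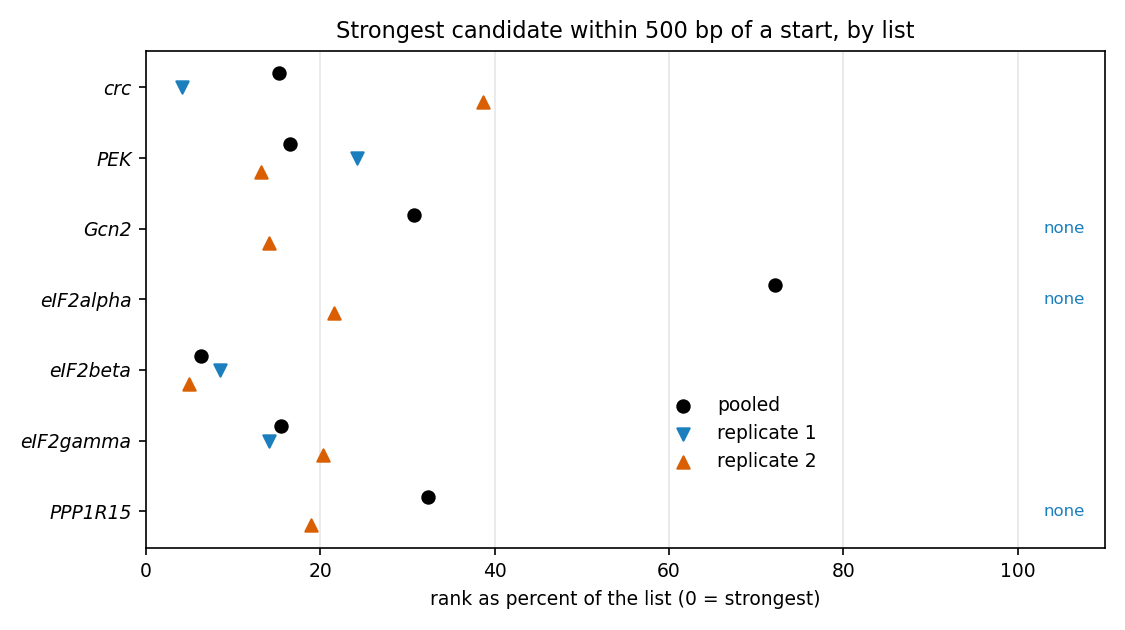
Rank of each gene's strongest candidate within 500 bp of a start, as percent of the way down each list (0 is the strongest), in the pooled list (black), replicate 1 (blue) and replicate 2 (orange). crc runs from 4.08% in replicate 1 to 38.7% in replicate 2, and Gcn2, eIF2alpha and PPP1R15 have no replicate 1 point.

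By the pattern of promoter signal over the lists, the genes most like crc were Polr3F, Gmppb and Ubi-p63E, among 968 genes that had a candidate in the pooled list and in replicate 1 with none matching in replicate 2. Against the signals of crc, 49.4 in the pooled list and 40.1 in replicate 1, Polr3F, an RNA polymerase subunit gene, had 52.7 in the pooled list and 37.1 in replicate 1. Gmppb, a sugar nucleotide enzyme gene, had 54.8 and 40.5 in the same lists, and Ubi-p63E, a polyubiquitin gene, had 53.3 and 34.3. For eIF2beta, compared over all 3 lists among 3443 genes, the nearest were CG31855, CG15784 and TfIIA-S. The eIF2beta signal was 84.4 pooled, 11.4 in replicate 1 and 52.2 in replicate 2, taken within 100 bp of the pooled summit. The signals of these genes ran from 67.9 to 82.4 pooled, from 11.8 to 13.7 in replicate 1 and from 51.2 to 55.0 in replicate 2. The measure was the distance in log2 signal, which was at most 0.32 for the genes named.

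The rest of the pathway gave 23 further genes, of which 21 had a pooled promoter candidate, 10 an optimal peak within 5 kb and 6 an optimal peak within 500 bp of a start. Over all genes the shares for these were 45.5%, 32.3% and 11.5%. None of the 5 eIF2B genes, which encode the exchange factor that phosphorylated eIF2 inhibits, had an optimal peak at its own start. Beside eIF2Bbeta stood the strongest pooled peak of the genome, at the start of Ugalt 679 bp away, with a signal of 1273.8 and rank 2 in each replicate; the promoter candidate of eIF2Bbeta itself had 34.4. eIF2Bgamma had an optimal peak of 99.8 at the start of CG8187, 1298 bp from its own. Of the activators of Gcn2, CG9330 had an optimal peak of 1189.5 at rank 3, at the start of CG14100 and 4358 bp from its own start, and the other had none. The 4 protein phosphatase 1 catalytic subunit genes, whose products PPP1R15 directs to eIF2alpha, had no optimal peak within 5 kb.

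Start codon and reinitiation factors, which set where on an mRNA translation begins, had an optimal peak at their own start in 3 of 7 genes. eIF2D had 84.0 at rank 1544, 145 bp from its start, with 26.3 in replicate 1 and 52.3 in replicate 2. MCTS1 had 80.1, 443 bp from its start and nearer to that of rux, with 29.8 in replicate 1 and no match in replicate 2. NAT1 had 71.8, 136 bp from its start, with 36.0 in replicate 1 and 36.6 in replicate 2. The signal at the eIF2beta start, 84.4, was close to that of eIF2D. Of 5 endoplasmic reticulum stress sensors and regulators of PEK, 3 had an optimal promoter peak, all stronger than that of eIF2beta. Ire1, the sensor kinase and nuclease, had 123.5 at rank 803, 177 bp from its start and nearer to that of Mrm2. Xbp1, the factor whose mRNA Ire1 splices, had 118.1 at rank 849, 41 bp from its start. P58IPK, a chaperone known in mammals as an inhibitor of PERK, had 101.1 at rank 1123, 55 bp from its start. PEK itself, with 47.3, stood below all 3.

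PPP1R15 (FBgn0034948), the regulatory subunit that brings protein phosphatase 1 to eIF2alpha, lies on the reverse strand at chr2R:23975599-23977255. Its promoter candidate had a signal of 32.2 at rank 7898, 128 bp upstream of the start, above 40.4% of genes with one. In replicate 2 a summit 77 bp from it had 23.5 at rank 5658, and replicate 1 had no summit within 500 bp of the start. A candidate in its coding exon, 761 bp after the start, had 28.9 at rank 9816. It was matched in replicate 2 alone, near the end of that list (9.9, rank 26816). The nearest replicate 1 summit was 223 bp away, with 15.7 at rank 10355. The PPP1R15 promoter held 2 DREs, which begin 99 bp upstream and 3 bp after the start. PPP1R15, Gcn2 and eIF2alpha each had a DRE close to the start and a promoter candidate listed in replicate 2 alone, whereas eIF2gamma had DREs and a candidate in both replicates. The share of all genes with both traits was not counted, and a link between them was not tested.

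The optimal peak near PPP1R15 was 1299 bp upstream of its start and 247 bp from the start of Sox14 (FBgn0005612), an HMG-box transcription factor gene that runs the other way. It had a signal of 406.4 and rank 53 in the pooled list, with 165.3 in replicate 1 and 243.8 in replicate 2, and rank 53 in each of these as well. The PPP1R15 start, in contrast, had no entry in replicate 1. A candidate 61 bp from a Sox14 start had 22.2 and one in a Sox14 intron had 24.7, the intronic one with a CARE of the wider form, and both were matched in replicate 1 alone.

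Without replicate 2, where the strongest 2420 candidates of replicate 1 stood in for the optimal list, the 1 gene with a peak at its own start was crc, with its rank of 1224, and not eIF2beta, at rank 2556. Without replicate 1 it was eIF2beta, at rank 1474. By this cut on rank, eIF2beta passed in replicate 2 alone and crc in replicate 1 alone. The eIF2beta rank of 2556 in replicate 1 lay just past the cut of 2420. A cut on the rank in 1 replicate is not the authors' filter, so it does not show which library their call rested on.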

How the data were processed

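Regions came from ChIP-seq peak lists of 2 biological replicates in dm6. The authors called candidate regions for each replicate and for the pooled reads against a control, which was not analysed here, and deposited an optimal list that passed the irreproducible discovery rate filter. Per the deposited files each region has a signal value, an unstated score of its caller, and −log10 of a q value, deposited in the same rows and used here only to break ties in rank. For the aligner, the caller, the software versions and the number of reads, nothing is stated (not given in the sources used here). The dm3 lists were not used.

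Genes were the protein-coding genes of Ensembl BDGP6.54, release 115, on 7 chromosome arms; bases and RefSeq starts came from the RefSeq copy of Release 6. Coordinates are 1-based. A summit is the authors' position. Summits within 100 bp were taken as matched. Elements were searched on both strands within 100 bp of a summit (201 bp) or from 250 bp before to 50 bp after the first start. Intervals of shares are Wilson intervals at 95% and cover counting error alone. The assignment of summits and elements was tested on simulated data.

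The genes and the pathway and element lists were chosen with earlier results of these data known. Named neighbours have a start within 500 bp of a region described; further genes named are those that hold a described summit in their body or share a start. Up to 3 genes of each pathway list with the strongest optimal peak are named, and the 3 genes with the smallest distance in log2 signal to crc and to eIF2beta, taken as the gene with the strongest optimal peak at its own start. The gene listed as CG17514 was found under its present name l(3)80Fj, and the symbol Gcn1 was not found in the annotation. Alternatives covered the distance limits, the match distance, the stronger optimal peaks, RefSeq starts, the element forms and leaving out each replicate. Software was Python 3.11.15, pandas 2.3.3, numpy 2.4.6, scipy 1.17.1 and matplotlib 3.10.9.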

Additional observations from a re-analysis of the deposited data

How the results depend on the processing

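The count of 4 genes with an optimal peak within 5 kb depended on the limit. It was 1 in the gene body alone (7.77% of all genes). It was also 1 within 1 kb (18.4%), which over 7 genes is near the share of all genes. It was 2 within 2 kb (22.4%) and 4 within 10 kb (45%). It was 4 with the optimal peaks above their median signal (19.7%) and with any overlap of the interval, and 3 to 5 when either replicate was left out (32.2 and 33.2%). The 36 pooled candidates became 10 in the gene body alone, 18 within 1 kb, 20 within 2 kb and 55 within 10 kb, and were 33 to 54 when 1 replicate's own list was used. With the optimal peaks above their median signal, 0 genes had one at their own start, against 6.35% of all genes. A count of 0 is near that share, since 7 genes are few. The count was 1 under each of the other 6 alternatives, against 7.88 to 13.5% of all genes. Of the 14 candidates matched in both replicates, 9 were matched within 50 bp, 19 within 200 bp and 23 by any overlap; leaving out a replicate gives no value here. The CARE was at 2 candidates, at 1 in its strict form alone, and at 2 to 3 when a replicate was left out. The DRE count of 4 promoters was 4 within 100 bp of the start and 5 from 500 bp before it. The replicate lists, both DRE windows and the list of strict CAREs near starts were chosen after seeing the data. No paired analysis was possible because there is 1 group. Unknown depth and lists of 30000 entries limit what an absence from a replicate shows.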
